A study of Mus musculus with 12 samples.

Results

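The SR proteins and splicing regulators described here are 32 genes of 33250 gene symbols in the table, all of which passed the low-count filter, so that 32 of 19325 genes tested belong to the group. They were named in a list of SR and SR-like proteins, U1-associated proteins, DEAD-box helicases, SR-protein kinases and cyclins L. The list was drawn up after Srsf11 and Pnisr had headed the genes that were lower in knockout tissue in an earlier analysis of these data, so the genotype difference chose the group and is described here without a test. RNA was measured by polyA sequencing of bulk hippocampus from male Mus musculus. The groups were 6 wild type (WT) mice and 6 conditional knockouts (cKO) of the miRNA cluster bounded by Mir379 and Mir410. Cre recombinase removes the cluster in Emx1 positive cells, which in the dorsal forebrain include the glutamatergic neurons. Not given in the sources used here are the age, the strain and whether WT mice carry the targetable allele or Cre. Cells without Cre, such as interneurons, microglia and vessel cells, keep the cluster and contribute to the same libraries. In bulk tissue, fewer cells of a type and less RNA per cell cannot be told apart.

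SR proteins bind exonic and intronic sequences of nuclear precursor RNA through RNA recognition motifs and recruit the spliceosome through domains rich in arginine and serine. Kinases of the CLK, SRPK and PRP4 families phosphorylate these domains and so control where the proteins are in the nucleus and what they bind. Many of the genes limit their own output by splicing in an exon that exposes the transcript to nonsense-mediated decay, or by keeping introns. In neurons they act beside tissue-restricted regulators of alternative exons.

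The annotation of GRCm38 carried this feature of the family. Of the 32 genes, 28 (87.5%) had at least 1 annotated transcript with a retained intron and 29 (90.6%) had at least 1 annotated as a target of nonsense-mediated decay. The shares were 54.2% and 26.5% among the 15523 protein-coding genes tested. The median number of annotated transcripts was 10 for the splicing regulators and 5 for those protein-coding genes. The deposited values are 1 number per gene symbol, so productive and unproductive transcripts of a gene are summed in every level given below.

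The cluster, which cKO animals lack in their Emx1 positive cells, lies on chromosome 12 from 109709060 (the start of Mir379) to 109743795 (the end of Mir410) on the plus strand. The RefSeq table of GRCm38.p6 lists 69 mature miRNAs of 37 miRNA genes there, with 63 different seeds (bases 2 to 8). Shown are miR-495-3p and miR-381-3p, whose seed matches are in the 3′ UTRs of the most splicing regulators, and miR-379-3p and miR-411-3p, which share a seed and were chosen because several of the genes with lower values in cKO tissue hold its match. Capitals mark the seed.
miR-379-3p: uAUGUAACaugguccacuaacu
miR-411-3p: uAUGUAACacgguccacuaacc
miR-495-3p: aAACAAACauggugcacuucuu
miR-381-3p: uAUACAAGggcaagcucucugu
The longest annotated 3′ UTR of each gene was searched for the complement of each seed. At least 1 match to any seed of the cluster was in 28 of 32 splicing regulators (87.5%), against 89.3% of 15274 genes tested that have a 3′ UTR of at least 50 bases. The density was 4.23 matches per kb in the splicing regulators and 4.17 in all genes tested, so the group as a whole held about as many matches as other genes. With the further requirement of an A after the match, 22 splicing regulators (68.8%) and 63.7% of genes tested held one. The match to miR-495-3p was in 10 of 32 genes (31.2%, against 24.0% of genes tested) and that to miR-381-3p in 8 (25.0%, against 13.0%). The match to the shared seed of miR-379-3p and miR-411-3p was in 7 (21.9%, against 9.35%), and it was singled out after all 63 seeds had been counted. Because the genotype difference guided that choice, nothing is read from its share or from its presence in genes with lower values.

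The 7 genes with that match were Srsf1, Srsf11, Tra2a, Son, Rbm25, Luc7l and Luc7l3. The sites of 5 of them are printed as bases of the mRNA strand, with GRCm38 positions and with the match in capitals, because Srsf11, Son, Tra2a, Rbm25 and Luc7l3 are among the 8 genes whose levels are given in every library for their small unadjusted p. The other 3 of those 8, Pnisr, Luc7l2 and Clk4, do not hold this match. A match is a run of letters, and binding of a miRNA to it was not measured.
Srsf11, chr3:158011815-158011836, minus strand: gcattgccatgGTTACATccat
Srsf11, chr3:158011546-158011567, minus strand: acattcttagaGTTACATctga
Tra2a, chr6:49243988-49244009, minus strand: ttgggacattgGTTACATgggt
Son, chr16:91663035-91663056, plus strand: ctgttccattgGTTACATgctt
Rbm25, chr12:83681602-83681623, plus strand: ttacattcagaGTTACATttca
Luc7l3, chr11:94290553-94290574, minus strand: aaccacaggtgGTTACATatct
Srsf11 held 11 matches to cluster seeds in a 3′ UTR of 1536 bases and Son held 7 in 1536 bases. Luc7l, with 23 matches in 3738 bases, and Prpf4b, with 21 in 4468 bases, held the most. Rbm5, Snrnp70, Clk1 and Clk4 held none, in 3′ UTRs of between 197 and 596 bases.

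Promoter sequences of 29 of the 32 genes were in the RefSeq table of GRCm38.p6, each with 250 bases before and 50 bases after a transcription start. Pnisr, Clk1 and Luc7l had no entry. The 36 promoters of these genes had a median GC content of 65.2% and a median of 30 CpG dinucleotides. Over all 32851 promoters of the table these were 52.7% and 7. That set spans 27025 genes, of which only 13105 were tested here, so it is no comparison with expressed genes alone. The promoters of Srsf11, Son and Tra2a are shown because these genes had the most separate groups or the largest differences, with every match to the words searched in capitals. Adjoining or overlapping matches form a single run. Srsf11 has a second entry in the table, chr3:158031699-158031998 on the minus strand, which is not printed. That entry holds the NRF1 word named below, and the printed one does not.
Son, chr16:91647574-91647873, plus strand: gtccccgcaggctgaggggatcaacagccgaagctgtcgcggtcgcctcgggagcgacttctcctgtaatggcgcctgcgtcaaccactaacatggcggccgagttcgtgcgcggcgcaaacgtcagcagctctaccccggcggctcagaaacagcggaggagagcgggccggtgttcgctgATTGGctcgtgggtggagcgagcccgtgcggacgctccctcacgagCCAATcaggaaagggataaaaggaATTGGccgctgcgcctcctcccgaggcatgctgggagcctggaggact
Srsf11, chr3:158036557-158036856, minus strand: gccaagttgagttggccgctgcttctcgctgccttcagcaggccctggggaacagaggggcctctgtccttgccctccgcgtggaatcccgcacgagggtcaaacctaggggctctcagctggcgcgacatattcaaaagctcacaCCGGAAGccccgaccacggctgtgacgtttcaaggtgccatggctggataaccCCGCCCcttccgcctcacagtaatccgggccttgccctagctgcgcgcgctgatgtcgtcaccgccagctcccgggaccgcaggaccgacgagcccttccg
Tra2a, chr6:49264003-49264302, minus strand: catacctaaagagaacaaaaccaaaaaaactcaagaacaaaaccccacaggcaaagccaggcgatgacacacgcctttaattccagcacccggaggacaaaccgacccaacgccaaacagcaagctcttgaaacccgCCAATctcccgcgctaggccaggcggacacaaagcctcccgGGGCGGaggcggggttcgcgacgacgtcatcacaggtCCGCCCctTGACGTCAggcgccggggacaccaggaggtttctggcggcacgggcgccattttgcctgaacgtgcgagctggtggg
The words searched on both strands are those of known promoter elements and factors. For general elements they were TATAAA of the box that positions the polymerase, the CCAAT word and the GC box GGGCGG. For factors they were CCGGAAG of ETS proteins, GCGCATGCG of NRF1, TGACGTCA of the cAMP response, AAGATGGCG of YY1 and TCTCGCGA of ZBTB33. The TGACGTCA word is its own reverse complement, and the NRF1 word can overlap itself on the other strand. Counted by gene, the GC box word was in 72.4% of the 29 splicing regulators and 63.1% of 13105 genes tested, with 35.7% of all promoters of the table holding it. The CCAAT word was in 44.8%, 42.2% and 37.4% in the same order, and the TATAAA word in 13.8%, 9.85% and 13.6%. The ETS word was in 27.6%, 16.6% and 8.86%, the TGACGTCA word in 10.3%, 3.22% and 1.79%, the ZBTB33 word in 10.3%, 2.00% and 0.995%, and the YY1 word in 0 of 29, 2.90% and 1.40%. The NRF1 word was in 5 splicing regulators (Clk4, Snrnp70, Srrm1, Srsf11 through its unprinted entry, and Srsf7), or 17.2%, against 3.43% of genes tested and 1.75% of all promoters. The TGACGTCA word was in Ccnl1, Clk4 and Tra2a. These are matches of letters, and no binding was measured.

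Before the levels, some libraries need a description. Totals ranged from 42360558 to 51095758 counts, and the members had between 960 and 46444 counts in a library, and libraries of a genotype differed by more than counting noise (smallest chi-square over its degrees of freedom, 8.51). The library labelled cKO 1 was at 0.788 CPM (each count put on 1 library size with TMM factors) for B830012L14Rik, an RNA of the targeted region, within the WT range of 0.310 to 0.865 CPM. The other 5 cKO libraries were at 17.4 to 25.8 CPM, so that library goes against its label at this gene. At Emx1, the gene that drives Cre, cKO 1 was at 9.14 CPM, again within the WT range (8.38 to 9.60 CPM), and the other 5 cKO libraries were at 5.91 to 6.84 CPM. At Mirg it was at 23.6 CPM, below every WT library (28.4 to 34.1 CPM) and below the other 5 cKO libraries (32.6 to 46.4 CPM). Every cKO mean of 6 libraries below includes the library labelled cKO 1. WT 2, WT 3 and cKO 4 were low in Ttr, the choroid plexus transthyretin gene, at 28.3 to 498 CPM against 2222 to 7657 CPM in the other 9. Values without these libraries are given for some of the results below.

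All 32 splicing regulators were expressed in every library. Levels between genes are compared per length, as CPM per kb of merged exons. The RNA helicase gene Ddx5 was highest, at 151 ± 5.12 CPM per kb (SD over 12 libraries), and the gap to the next gene exceeded the spread of both. Srsf5 (70.3 ± 2.61), which encodes a splicing enhancer protein, and Srrm2 (67.6 ± 3.85), which encodes a scaffold of nuclear speckles, followed and overlapped each other. Snrnp70 (51.5 ± 2.65), the RNA-binding protein of the U1 particle, came next, and then Srsf2 (41.7 ± 1.44) and Ddx39b (40.5 ± 1.11), which overlapped each other. From Srsf6 (25.8 ± 1.05) to Luc7l3 (21.6 ± 0.98) there were 8 genes whose neighbours in the order did not differ beyond their spread. The lowest were Clk2 (7.61 ± 0.38), Tra2b (7.34 ± 0.36), Srsf12 (7.18 ± 0.53) and Ccnl1 (7.12 ± 0.29), which overlapped one another. Divided by the longest transcript, Ddx5 was again highest (243 CPM per kb), and Srsf12 (7.70) was lowest.

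**Figure D1:**
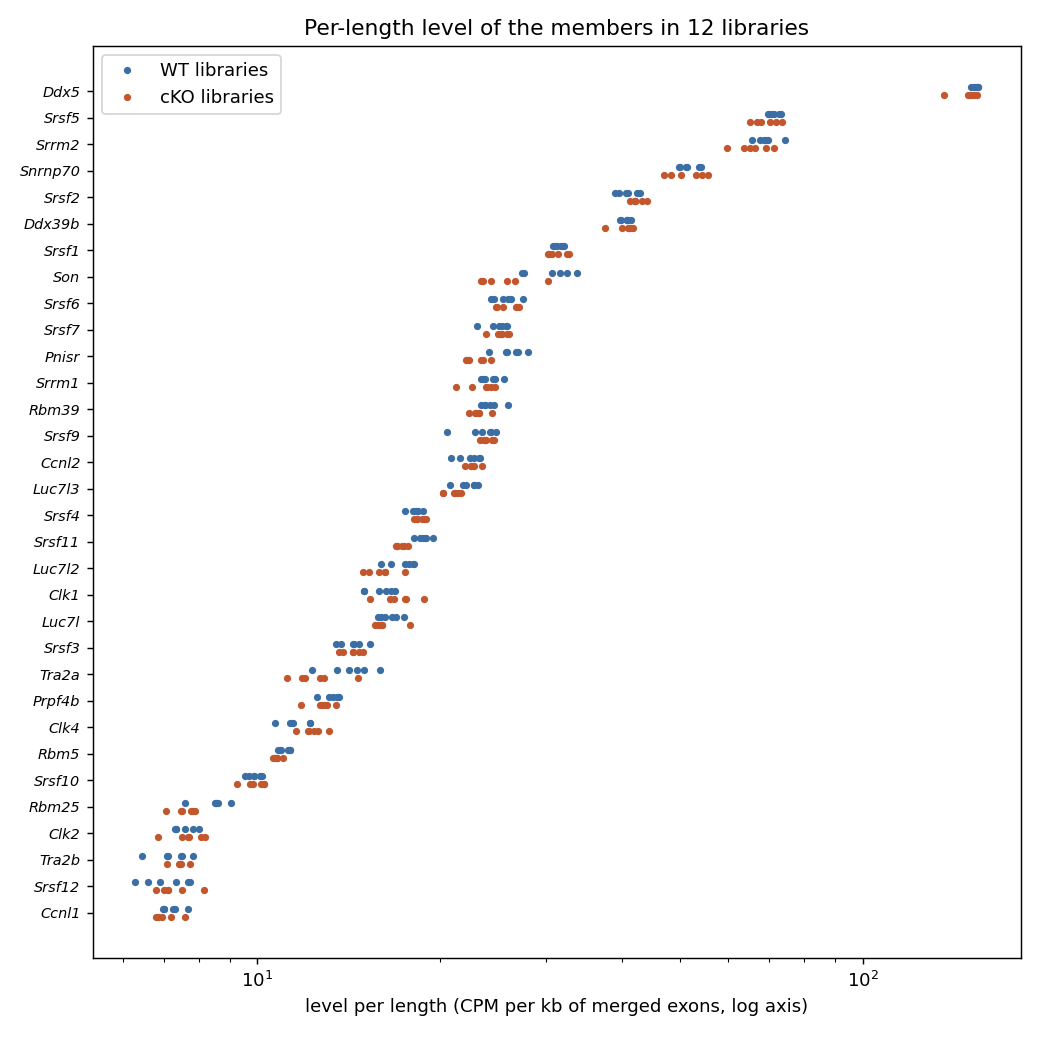
Level of each splicing regulator per kb of merged exons (CPM per kb, log axis) in 12 libraries, with WT points above and cKO points below each gene's line. Ddx5 stands at 151 CPM per kb, and the 4 lowest genes lie between 7.12 and 7.61.

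The genes varied little between animals. Over the 6 WT libraries the median coefficient of variation was 3.93% for the 32 genes, against 5.24% for the 7998 genes of at least 20 CPM in WT and 9.04% for all genes tested. Ddx5 had the smallest, at 1.08%, and Tra2a the largest, at 8.77%, with Son at 8.51%. In cKO libraries the median was 4.03%.

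Between genotypes, 8 of 9 SR-like regulators and 4 of 4 U1-associated proteins had lower values in cKO tissue, 4 of 11 SR proteins did, and 3 of 4 kinase genes had higher values. With library totals alone the lower counts were 8, 3 and 2, and with GC and length offsets they were 7, 4 and 2, with 3 of 4 kinase genes higher in each. These were not the same 3 kinase genes, since with the offsets Clk2 became lower and Prpf4b higher. In all, 20 of 32 (62.5%) were lower, against 46.6% of all genes tested, and the median log2 fold change (cKO minus WT) was -0.02 against 0.01. The differences were small: the median size was 0.04 on the log2 scale, and the largest was -0.25. No member passed an edgeR adjusted p of 0.05, which 0.0103% of the genes tested did. With DESeq2, 3 members passed (Srsf11, Pnisr and Rbm25), where 0.393% of genes did. At an unadjusted edgeR p of 0.05, 8 members were lower, beside 6.34% of the genes tested, and 2 were higher (Clk4 and Clk1), beside 3.2%. Because this contrast led to the choice of the genes, nothing is read from these counts.

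**Figure D2:**
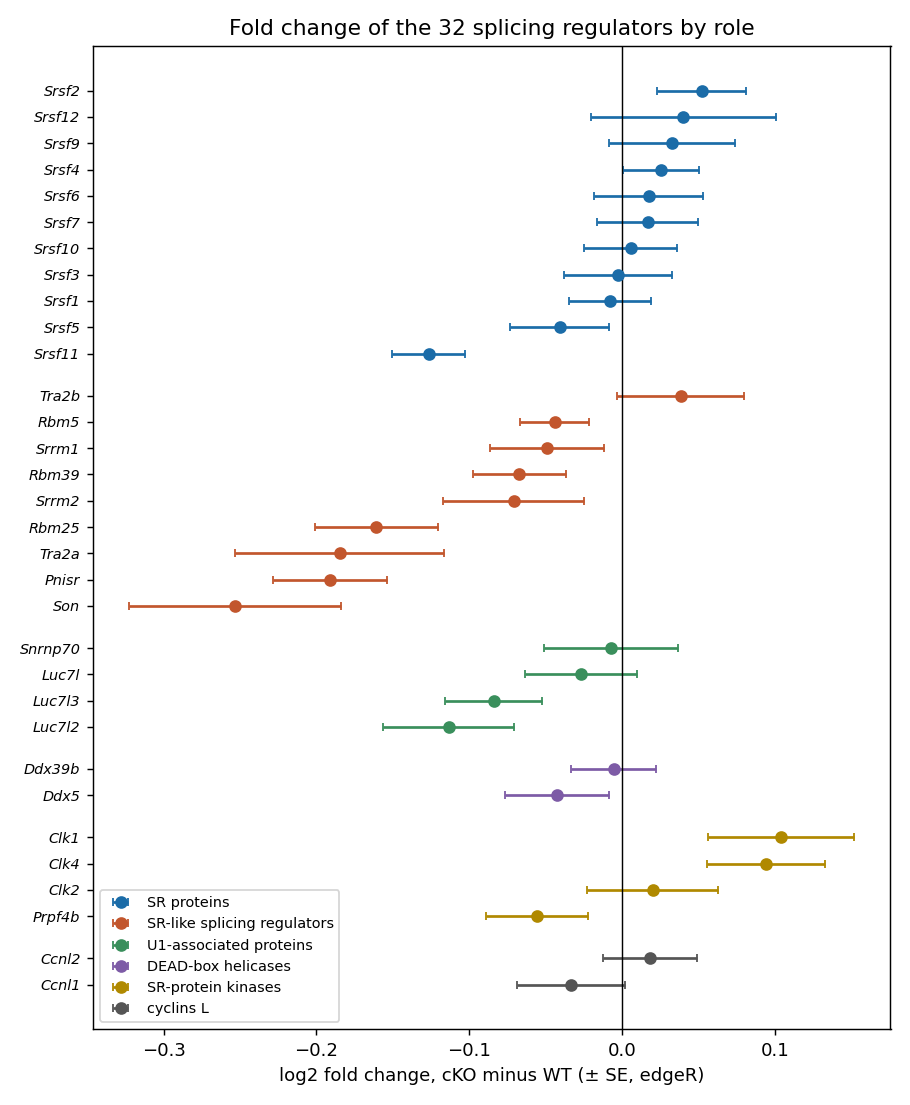
Log2 fold change (cKO minus WT) of the 32 splicing regulators with SE from edgeR, 6 libraries per genotype, grouped by role. Son, Pnisr, Tra2a, Rbm25 and Srsf11 lie farthest to the left, and Clk1 and Clk4 farthest to the right.

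Srsf11 (ENSMUSG00000055436.18) encodes a nuclear SR protein of alternative splicing and lies on chromosome 3 from 158010473 to 158036639 (GRCm38, minus strand). The WT libraries 1 to 6 held 159.9, 160.6, 158.6, 153.1, 164.4 and 157.0 CPM. The cKO libraries 1 to 6 held 146.4, 143.0, 143.6, 149.7, 147.3 and 143.5 CPM. Every cKO library was below every WT library, and with no library left out Srsf11 was the only member for which this held, as it did for 0.223% of the genes tested. The means were 158.9 ± 3.77 and 145.6 ± 2.67 CPM (SD, n = 6 each). On the log2 scale cKO tissue differed by -0.13 ± 0.02 (SE), a level 0.916 times that of WT tissue. Without the library labelled cKO 1 it was -0.14, and with trends in GC content and length removed it was -0.11, where its groups overlapped. With a single library left out, the groups of further members were apart too. These were, for example, Pnisr, Son and Rbm39 without cKO 1, and Pnisr, Rbm25 and Luc7l3 without WT 1. The share of all genes was not counted in these settings.

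The other 10 SR proteins showed smaller differences, from -0.04 (Srsf5) to 0.05 (Srsf2), with 3 lower and 7 higher. Srsf5 had the highest level of them. Its WT libraries held 284.4, 278.3, 292.4, 282.2, 290.1 and 279.1 CPM, and its cKO libraries 267.0, 271.1, 286.6, 280.5, 294.1 and 259.6 CPM. The groups overlapped, and the cKO libraries were spread more widely (SD 12.9 against 5.78 CPM). Srsf1, the founding member and a splicing enhancer factor (179.7 and 178.7 CPM), Srsf3, the smallest SR protein (113.4 and 113.1 CPM), and Srsf10, a regulator that also represses splicing (69.1 and 69.3 CPM), were nearly level between genotypes. With GC and length offsets and animal number as a block, their log2 fold changes were 0.05, 0.04 and 0.05. Srsf2 (121.1 and 125.5 CPM), Srsf6 (123.3 and 124.8), Srsf7 (88.5 and 89.6), Srsf4 (65.0 and 66.1), Srsf9 (38.7 and 39.6) and Srsf12 (22.3 and 22.9) were each slightly higher, with overlapping groups. Without WT 2, WT 3 and cKO 4 the groups of Srsf2 did not overlap, and its log2 fold change was 0.085. With GC and length offsets Srsf4 changed sign, to -0.03. Srsf4 shares 1532 exonic bases with Gm12992 on the opposite strand and Srsf2 shares 460 with Mettl23, and no source used here gives the strand setting of the counting.

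Among 9 SR-like regulators, 8 were lower and only Tra2b was higher (66.9 and 68.7 CPM, log2 fold change 0.04). Pnisr, a nuclear protein with a domain rich in arginine and serine, lies on chromosome 4 from 21847583 to 21876475. Its WT libraries held 246.1, 262.6, 263.3, 272.6, 285.7 and 274.8 CPM, and its cKO libraries 240.0, 247.3, 227.9, 225.0, 238.3 and 227.2 CPM. A single cKO library, cKO 2, lay above the lowest WT library, WT 1. The log2 fold change was -0.19 ± 0.04.

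Son encodes a large speckle protein needed for splicing of weak introns and lies on chromosome 16 from 91647506 to 91679221. Its WT libraries held 411.0, 471.3, 408.5, 457.3, 502.8 and 484.7 CPM, and its cKO libraries 449.7, 396.5, 349.6, 362.1, 351.1 and 386.0 CPM. The library labelled cKO 1 lay within the WT range and the other 5 were below every WT library. The log2 fold change of -0.25 ± 0.07 was the largest in size of the 32, and it was -0.31 ± 0.06 without that library.

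Tra2a, one of a pair of Transformer-2 homologs that promote inclusion of exons with purine-rich enhancers, lies on chromosome 6 from 49243924 to 49264033. Its WT libraries held 93.9, 98.4, 85.4, 104.0, 101.5 and 110.5 CPM, and its cKO libraries 101.7, 83.1, 82.3, 77.6, 89.5 and 88.2 CPM. As for Son, cKO 1 was highest in its group, and the groups overlapped. The log2 fold change was -0.18 ± 0.07, and -0.24 ± 0.06 without cKO 1.

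Rbm25, which binds exonic enhancers and assists U1 recruitment, lies on chromosome 12 from 83631236 to 83683123. Its WT libraries held 131.9, 149.5, 148.5, 148.7, 157.2 and 148.0 CPM, and its cKO libraries 122.6, 136.1, 130.5, 134.9, 136.8 and 129.7 CPM. WT 1 stood apart from the other WT libraries and lay among the cKO values. The log2 fold change was -0.16 ± 0.04, and it moved to -0.08 ± 0.05 with trends in GC content and length removed.

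Srrm2 was the highest SR-like gene in CPM. Its WT libraries held 870.0, 881.9, 887.7, 842.4, 956.4 and 897.5 CPM, and its cKO libraries 766.6, 889.6, 851.5, 917.1, 837.2 and 817.5 CPM. The groups overlapped, with a log2 fold change of -0.07 ± 0.05. Rbm39, an RNA-binding protein related to U2AF (168.7 and 161.0 CPM), Rbm5, a regulator of apoptosis-related exons (171.2 and 166.0 CPM), and Srrm1, a splicing coactivator (177.2 and 171.2 CPM), had log2 fold changes from -0.04 to -0.07. For Rbm5 and Rbm39, 5 of 6 cKO libraries were below every WT library, but with trends in GC content and length removed Rbm5 changed sign, to 0.01 on the log2 scale. Without cKO 1 the log2 fold change of Rbm39 was -0.09.

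**Figure D3:**
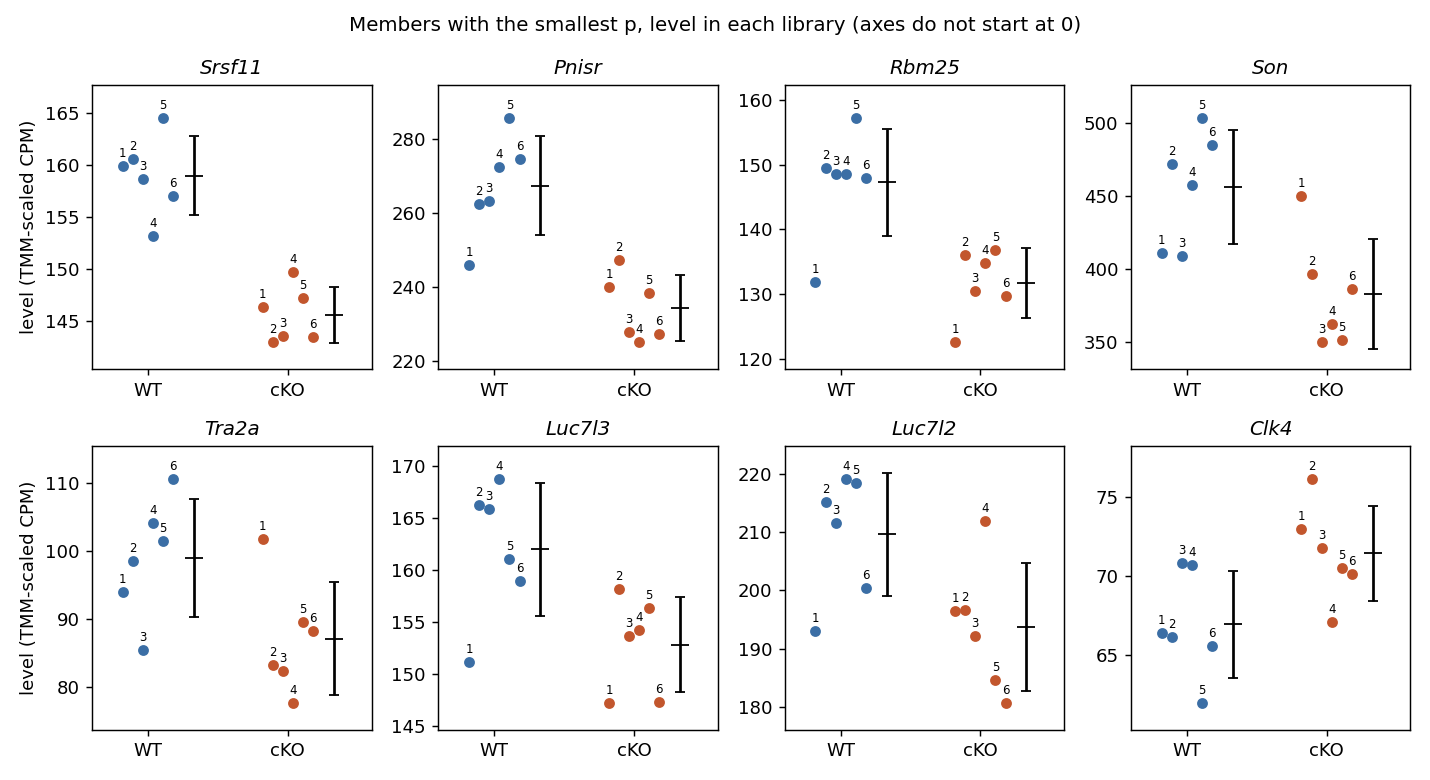
Level (TMM-scaled CPM) of the 8 members with the smallest unadjusted p in each numbered library, with mean and SD (n = 6) in black. Srsf11 is the 1 gene whose groups do not overlap. The cKO 1 point lies in the WT range for Son, Tra2a and Luc7l2. The WT 1 point lies in the cKO range for Pnisr, Son, Tra2a, Rbm25, Luc7l2 and Luc7l3.

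The 4 genes of U1-associated proteins had lower means in cKO tissue with TMM scaling of all libraries. Snrnp70 kept this sign in 21 of 24 settings. It was at 0.00 on the log2 scale with library totals alone and at 0.01 without cKO 1. Luc7l2 and Luc7l3 encode homologs of a yeast U1 protein that acts in the choice of 5′ splice sites. Luc7l2 held 193.0, 215.2, 211.5, 219.1, 218.4 and 200.5 CPM in the WT libraries and 196.4, 196.6, 192.2, 211.9, 184.6 and 180.7 CPM in the cKO libraries. Luc7l3 held 151.1, 166.2, 165.9, 168.7, 161.0 and 158.9 CPM in WT and 147.2, 158.2, 153.6, 154.2, 156.4 and 147.3 CPM in cKO. In both genes WT 1 was the lowest WT library and lay within the cKO range. The log2 fold changes were -0.11 ± 0.04 for Luc7l2 and -0.08 ± 0.03 for Luc7l3, and -0.07 and -0.03 with trends in GC content and length removed. Luc7l2 shares 2284 exonic bases with Gm26699 on the opposite strand.

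Luc7l itself was nearly level (124.4 and 122.1 CPM). Snrnp70 held 412.6, 379.9, 409.2, 388.9, 390.1 and 379.4 CPM in WT and 357.6, 382.4, 423.1, 412.9, 404.6 and 367.3 CPM in cKO. The means were close, at 393.3 and 391.3 CPM, and the cKO libraries enclosed the WT range on both sides. With GC and length offsets and animal number as a block, the log2 fold change of Snrnp70 was -0.08.

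The helicase gene Ddx5, whose product unwinds RNA in splicing and transcription, held 882.1, 895.6, 888.9, 897.4, 872.4 and 881.0 CPM in WT. The cKO libraries held 891.5, 861.6, 884.0, 786.4, 871.0 and 867.9 CPM. The cKO 4 library was far below the rest, and without cKO 4, WT 2 and WT 3 the log2 fold change was -0.01, against -0.04 with all libraries. Ddx39b, a helicase of spliceosome assembly and mRNA export, was level with TMM scaling (153.5 and 152.9 CPM). With GC and length offsets its log2 fold change was -0.07.

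Clk1 and Clk4 encode dual-specificity kinases that phosphorylate SR proteins, and both were higher in cKO tissue. Clk4 held 66.4, 66.2, 70.8, 70.7, 62.0 and 65.6 CPM in WT and 73.0, 76.2, 71.8, 67.1, 70.5 and 70.2 CPM in cKO. Clk1 held 135.0, 129.2, 137.1, 132.8, 121.9 and 121.8 CPM in WT and 153.5, 136.9, 134.9, 124.6, 142.8 and 143.3 CPM in cKO. In each gene 3 cKO libraries lay above every WT library and the rest overlapped. The log2 fold changes were 0.09 ± 0.04 and 0.10 ± 0.05. Without cKO 1 that of Clk1 was 0.07. With trends in GC content and length removed they were 0.15 for Clk4 and 0.17 for Clk1. Clk2 was at 40.1 and 40.6 CPM, and Prpf4b, the kinase PRP4 that acts in tri-snRNP assembly, at 112.0 and 107.7 CPM. With GC and length offsets these changed sign, to -0.05 and 0.03 on the log2 scale.

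The cyclins L, partners of CDK11 in splicing, differed little. Ccnl2 held 122.6, 118.5, 123.2, 114.3, 110.4 and 120.3 CPM in WT and 120.2, 119.7, 119.1, 116.3, 118.7 and 124.2 CPM in cKO, with overlapping groups. Ccnl1 was at 43.2 and 42.2 CPM, and shares 442 exonic bases with Gm37305 on the opposite strand.

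Other measures moved with genotype beside these differences. Across the 15499 genes tested of at least 1 CPM with a known GC content, the quartile with the lowest GC content had a median log2 fold change of -0.03 with 65.5% lower, and the quartile with the highest had 0.03 with 27.2% lower. Of the 32 splicing regulators 18 were in the lowest quartile, and 12 of these 18 were lower in cKO tissue. With trends in GC content and length removed, or with scaling by library totals alone, 16 of 32 were lower, against 20 with TMM scaling. Of all genes tested, 52.5% were lower with those trends removed, 42.3% with library totals alone and 46.6% with TMM scaling. Across the 32 genes, log2 fold change ran against merged exonic length (Pearson r = -0.59, Spearman rho = -0.61) and not along GC content (r = 0.04, rho = -0.00). These correlations are across genes, which share their libraries and are not independent. No correlation with length was computed over all genes. For genes of at least 1 CPM, the median deviation in the quartile of longest transcripts minus that of the shortest was taken per library. It ran from -0.085 to 0.141 in WT and from -0.090 to 0.005 in cKO libraries, with overlap.

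Marker lists were given the same way. Excitatory neuron markers were lower for 6 of 7 genes, with sums of 6164 to 6898 CPM in WT and 5814 to 6748 CPM in cKO. Smooth muscle and pericyte markers were higher for 8 of 9 genes, with sums of 172 to 209 CPM in WT and 218 to 278 CPM in cKO. Oligodendrocyte markers were lower for 7 of 7 (median log2 fold change -0.08), with sums of 3356 to 5063 CPM in WT and 2740 to 4527 CPM in cKO. Endothelial markers were higher for 6 of 6 (0.09, 192 to 212 and 199 to 231 CPM), meningeal fibroblast markers for 6 of 6 (0.29, 74.8 to 124 and 89.6 to 151 CPM) and choroid plexus markers for 9 of 9 (0.35, 88.2 to 8316 and 57.2 to 5575 CPM). Interneuron markers were higher for 6 of 6 (0.03, 596 to 696 and 590.0 to 768 CPM), blood markers for 5 of 5 (0.04, 176 to 696 and 329.9 to 506 CPM) and astrocyte markers for 4 of 6 (0.02, 1732 to 1907 and 1752 to 1959 CPM). Oligodendrocyte precursor markers were lower for 4 of 5 (-0.03, 208 to 244 and 199 to 234 CPM) and microglia markers for 5 of 7 (-0.02, 289 to 294 and 273 to 297 CPM). The sums overlapped between genotypes on every list except that of smooth muscle and pericytes. No marker on these lists was at 0 in all libraries. The part of GC content, length and cell composition in the differences was not tested.

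The same comparison in other genes used lists drawn up with earlier results known. Those lists held 195 genes tested, with the heat shock, immediate early, mitochondrial and snoRNA host lists further below counted in. None of the 195 passed an edgeR adjusted p of 0.05, and DESeq2 called 1, the long non-coding RNA gene Snhg14. Among hnRNP proteins, which often oppose SR proteins, 19 of 26 were lower (14 with library totals alone and 11 with GC and length offsets), led by Hnrnpu (-0.09 ± 0.03), Hnrnph2 (-0.07 ± 0.03) and Hnrnpr (-0.08 ± 0.03). Among neuronal splicing regulators 18 of 24 were lower (16 and 17), led by Celf2 (-0.13 ± 0.04), Mbnl2 (-0.11 ± 0.04) and Qk (-0.11 ± 0.05). Nuclear long non-coding RNAs were lower for 7 of 10 (6 and 5 in the same order), led by Snhg14 (-0.50 ± 0.14), Kcnq1ot1 (-0.23 ± 0.07) and Malat1 (-0.44 ± 0.20), a speckle RNA. The medians of these lists were -0.02, -0.03 and -0.03, beside 0.01 over all genes tested.

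In the U2 particle and branch-site list 8 of 17 were lower (7 with library totals alone and 12 with GC and length offsets), with Sf3b1 (-0.09 ± 0.03), Dhx15 (-0.07 ± 0.03) and U2af2 (0.06 ± 0.03) first by p. In the tri-snRNP list 10 of 19 were lower (9 and 11 in the same order), with Aqr (-0.10 ± 0.04), Snrnp200 (-0.13 ± 0.05) and Usp39 (0.08 ± 0.04) first. In the U1 and Sm core 5 of 14 were lower (4 and 7), with Prpf39 (-0.09 ± 0.04), Snrpc (-0.09 ± 0.05) and Snrpg (0.11 ± 0.08) first. Other kinases, phosphatases and importers of SR proteins were lower for 6 of 11 (5 and 5), with Cdk12 (-0.09 ± 0.05), Srpk2 (-0.07 ± 0.04) and Srpk3 (0.17 ± 0.10) first. The exon junction and decay list had 9 of 19 lower (6 and 13), with Smg1, a kinase of the decay pathway (-0.34 ± 0.10), Sap18 (0.09 ± 0.04) and Upf2 (-0.05 ± 0.04) first.

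Lists of genes outside the splicing machinery gave the following. Of cold-inducible and heat shock genes 9 of 14 were higher, with Dnajb1 (0.23 ± 0.08), Hspa1a (0.30 ± 0.13) and Bag3 (0.19 ± 0.09) first. Hspa1a has a near-identical copy, Hspa1b, and reads may have been split between them. Of immediate early genes 13 of 18 were lower, with Egr4 (-0.22 ± 0.10), Egr1 (-0.25 ± 0.12) and Nr4a3 (-0.13 ± 0.06) first. Mitochondrially encoded genes were higher for 12 of 13, with mt-Nd3 (0.22 ± 0.10), mt-Nd4l (0.06 ± 0.04) and mt-Atp8 (0.05 ± 0.04) first. Host genes of snoRNAs were even, with 5 of 10 lower and Snhg8 (-0.10 ± 0.06), Snhg17 (0.07 ± 0.05) and Snhg3 (-0.07 ± 0.07) first. None of these genes passed in edgeR.

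Within genotypes, the question was whether the 32 genes go up and down together from animal to animal. Deviations from the genotype mean in log2 CPM were correlated over 12 libraries for 496 pairs, as a description. The median Pearson r was 0.07, beside -0.00 over 186718150 pairs of all genes tested. Pairs at 0.7 or above made up 3.83% of the members' pairs and 2.10% of all pairs, and pairs at -0.7 or below 2.82% and 1.73%. The splicing regulators thus had close pairs in both directions.

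Average-linkage grouping with a height of 0.6 split the 32 genes into 6 groups and Srsf11 alone. The largest held 9 genes: Srsf2, Srsf3, Srsf6, Srsf7, Srsf10, Tra2b, Ddx5, Clk1 and Ccnl2, with a median r of 0.54. Its closest pair was Srsf3 and Clk1 (r = 0.86, rho = 0.84), with r of 0.91 among WT and 0.88 among cKO libraries. A second group held Srsf1, Srsf5, Snrnp70, Srrm1, Srrm2, Ddx39b and Clk2, with a median r of 0.53 and Srsf5 and Snrnp70 closest (r = 0.81). Luc7l, Luc7l2 and Luc7l3 fell together with Rbm25 and Srsf12 (median r 0.54). Rbm5, Clk4, Rbm39 and Ccnl1 formed another group (median r 0.67), in which Rbm5 and Clk4 had r = 0.86.

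Pnisr, Prpf4b, Tra2a and Son formed a group with a median r of 0.58, and Srsf4 and Srsf9 a pair (r = 0.70). Pnisr, Tra2a and Son are also the 3 genes with the largest genotype difference in size. Genotype means had been removed before grouping, but by label, with cKO 1, the highest cKO library for Son and Tra2a, counted as cKO. Whether a genotype difference remained in the deviations was not tested. Son ran opposite to Snrnp70 (r = -0.86, rho = -0.76), with -0.86 among WT and -0.89 among cKO libraries, and opposite to Ddx39b (r = -0.84). Srrm2 ran opposite to Clk1 (r = -0.85) and Srsf10 (r = -0.79), and Srsf11 opposite to Clk4 (r = -0.75).

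**Figure D4:**
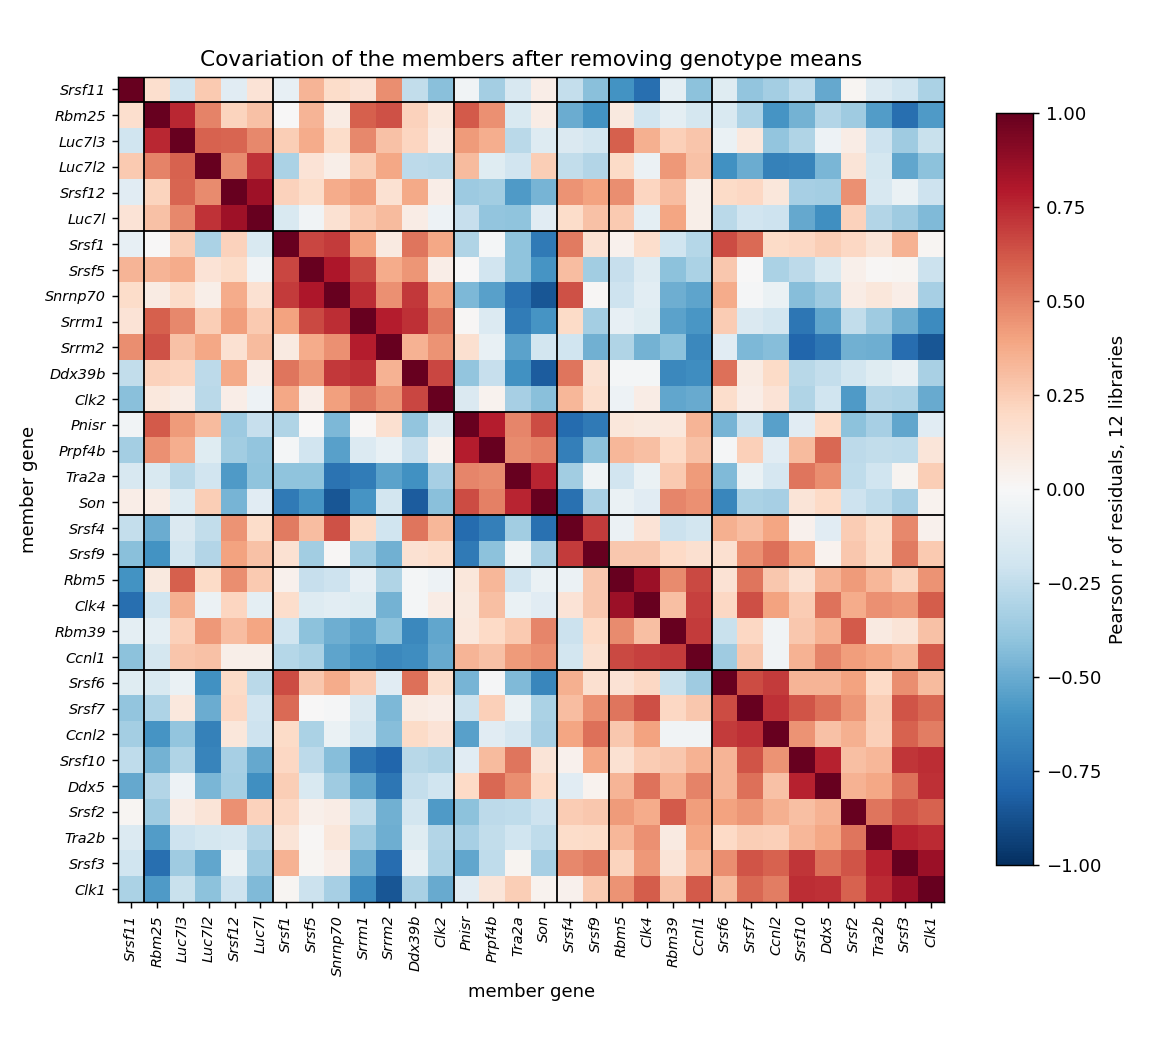
Pearson r between members over 12 libraries (residuals of log2 CPM after genotype means), ordered by average-linkage groups that black lines separate. Red blocks lie along the diagonal, and the rows of Son and Srrm2 hold the deepest blue cells, such as Son with Snrnp70 at -0.86.

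An index of library composition was set beside these deviations. It was taken as the median deviation of genes in the lowest GC quartile minus that in the highest, for each library. It was correlated, over 12 libraries, with the deviations of Pnisr (r = 0.84, rho = 0.78), Prpf4b (r = 0.73, rho = 0.60), Son (r = 0.73, rho = 0.71), Srsf4 (r = -0.85, rho = -0.83), Snrnp70 (r = -0.65, rho = -0.58) and Ddx39b (r = -0.62, rho = -0.64). Without WT 1 and cKO 4, the libraries farthest from the median of the index, r was 0.70, 0.34, 0.69, -0.78, -0.51 and -0.75 in the same order. These 6 were named after all 32 had been computed.

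With smooth trends in GC content and transcript length removed from every library, an alternative added after the data were seen, the median r of the members became 0.39. Other sets moved too: the median became 0.32 in 130 other splicing genes (0.06 before), 0.21 in the 7998 genes of at least 20 CPM in WT (0.01 before) and 0.04 over all pairs. Of the members' pairs 82.3% were then above 0, against 54.0% of all pairs. Tra2a and Son ran against the rest, with a mean r to the other members of -0.30 and -0.26, and Pnisr was at 0.00. The closest pair was Srsf4 and Srsf12 (r = 0.93), and the Srsf3 and Clk1 pair had r = 0.90.

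After this removal the median r was 0.58 among the WT libraries and 0.05 among the cKO libraries, a difference that was not tested. In WT 2, 31 of 32 members lay above their genotype mean, and in WT 3, 29 of 32 did, both libraries low in Ttr. In cKO 4, also low in Ttr, 19 of 32 lay above their genotype mean. In WT 5, 28 of 32 lay below it. Leaving out 1 library at a time gave medians from 0.30 (without WT 5) to 0.47 (without cKO 4).

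**Figure D5:**
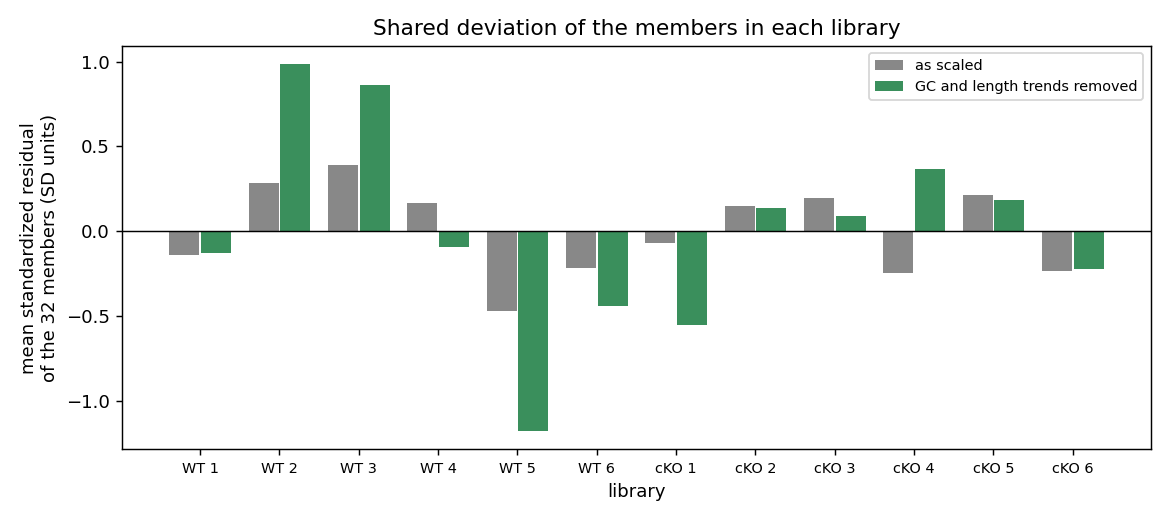
Mean standardized residual of the 32 members (in SD units, bars from 0) in each of 12 libraries, as scaled (grey) and with GC and length trends removed (green). After removal WT 2 (0.98) and WT 3 (0.86) are highest and WT 5 (-1.18) is lowest.

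The 10 other genes of at least 10 CPM whose deviations followed the mean of the 32 most closely, of 10307 such genes over 12 libraries, were Elavl1, Rnf6, Zfp763, Mak16, Tunar, Ghitm, 2010315B03Rik, Rab2a, Tada1 and Sox11. Elavl1, which encodes the RNA-binding protein HuR, was closest at r = 0.93, and the others lay between 0.82 and 0.88. None of the 10 differed between genotypes in edgeR, with adjusted p from 0.613 to 0.974 and log2 fold changes from -0.09 to 0.10.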

How the data were processed

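RNA was sequenced from bulk hippocampus of 6 WT and 6 cKO male mice after polyA selection, per the labels. The build GRCm38 and Salmon 1.3.0 are named per the submitters' processing notes. The authors deposited expected counts, not scaled, per gene symbol. Between 24.8% and 25.9% of values in a library were not whole, and all were rounded. Not given in the sources used here are the annotation and the strand setting. The labels number the animals, and the p-values set the genotype difference against the spread between them.

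The genotype comparison over 19325 genes used edgeR 4.0.16 (R 4.3.3) and its quasi-likelihood test (TMM scaling, filterByExpr with a count minimum of 10 and total of 15, Benjamini-Hochberg adjustment, threshold 0.05). Alternatives were DESeq2 1.42.0, limma-voom (limma 3.58.1), scaling by RLE, upper quartile or totals alone, other filters, left-out libraries, animal number as a block, and GC and length offsets (4 df splines each, 99.5% of genes with a value). The steps were tested on simulated data. Covariation used log2 CPM with a prior count of 2.

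The members and lists were chosen with earlier results of these data known. All 32 members are accounted for. Values in every library are given for the 8 with the smallest p and the highest of each role, with up to 3 genes named per list and the 10 most alike genes.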

Additional observations from a re-analysis of the deposited data

Results flagged for a closer look

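In each of 64 groups of 6 libraries (32 members in WT and in cKO), the gap between the most extreme library and its neighbour was compared with the whole range of the group. The share exceeded Dixon's critical value for 6 values in 3 groups, where chance gives about 3.2. Rbm25 was at 131.9 CPM in WT 1, with the other WT libraries at 148.0 to 157.2 CPM. Luc7l was at 134.5 CPM in cKO 4, with the other cKO libraries at 117.5 to 120.9 CPM. Ddx5 was at 786.4 CPM in cKO 4, with the others at 861.6 to 891.5 CPM. The cKO 4 library is 1 of the 3 low in Ttr and had the lowest TMM factor (0.984).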

How the results depend on the processing

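The number of splicing regulators past an adjusted p of 0.05 was 0 under edgeR and every alternative tried except DESeq2, which called 3. Among the genes of the other lists, markers of cell types aside, the count was 0 except for 1 (Snhg14) with DESeq2. Over all genes, the count of 2 became 76 with DESeq2, 0 with limma-voom, 1 without a low-count filter, 1 with at least 1 CPM in 6 libraries, 0 without WT 2, WT 3 and cKO 4, 1 with GC and length offsets, and 0 to 6 when single libraries were left out (6 without cKO 1). With animal number as a replicate block it was 0, or 1 with the offsets added. The deviations of same-numbered animals had r from -0.38 (number 3) to 0.54 (number 6). Number 6 had its own number as best partner, and numbers 1 to 5 had another. These values cannot show whether the numbers pair the animals. Of 736 log2 fold changes of members under alternatives, 697 stayed within 1 SE. The number lower in cKO ranged from 19 to 24 with single libraries left out. The median r of members, 0.07, was 0.04 by Spearman (0.035), 0.09 in WT alone (0.0949), 0.02 in cKO alone (0.0201), 0.0282 with the replicate block, 0.0419 without WT 2, WT 3 and cKO 4, 0.39 with GC and length trends removed, and 0.017 (without WT 5) to 0.0978 (without cKO 5) with single libraries left out. The causes of these changes were not tested. Every member had at least 960 counts in each library.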
